A study of Homo sapiens with 9 samples.

Results

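TWIST1 cDNA was added to WM793TR melanoma cells that already carried a TWIST1 shRNA, and the RNA of these shTWIST1+TWIST1 cells was compared with that of cells with the shRNA alone (shTWIST1). The comparison takes 6 of the 9 arrays of the study, 3 for shTWIST1+TWIST1 (genotype label TWIST1 overexpression) and 3 for shTWIST1 (TWIST1 knockdown), and covers 19903 genes. The other 3 arrays, from cells with a control shRNA (shControl), serve as side values and enter the same fit. They therefore help set the spread behind each p-value. Their label reads TWIST1 basal, and they were taken as the control shRNA because the labels name the other groups. Cells of all 3 groups are WM793TR, a human melanoma line built so that an introduced shRNA or transgene responds to doxycycline, and all received the drug at 100 ng/mL for 96 h. The cDNA is driven by a CMV promoter, according to the study's text, so its level does not follow that of the endogenous gene. The labels name 1 line per construct, do not say whether it is a clone or a pool, and do not say whether replicates were separate cultures, so p-values measure only the spread between these arrays, which may be technical.

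TWIST1 is a basic helix-loop-helix transcription factor that pairs with E proteins and binds E-boxes, short DNA motifs written CANNTG. It patterns mesoderm and neural crest in the embryo, can both activate and repress genes, and is one of the factors that drive epithelial-mesenchymal transition (EMT). ID proteins lack the DNA-binding region and hold E proteins away from factors of this family. In melanoma, which arises from a neural crest lineage, TWIST1 is known as a factor of invasive cells.

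Values are log2 expression, so a difference of 1 is a doubling of the signal. TWIST1 stood at 8.75, 8.90 and 8.27 in shTWIST1+TWIST1 arrays, at 6.18, 6.22 and 6.28 in shTWIST1 arrays, and at 6.77, 7.10 and 7.15 in shControl arrays. The 3 groups did not overlap. TWIST1 was higher with the cDNA by a log2 fold change of 2.41 (SE 0.16, limma adjusted p = 0.000447), which is 5.32-fold, and was also above shControl, by 1.63 (limma adjusted p = 0.00212). The shRNA alone gave -0.78 against shControl (limma adjusted p = 0.33). The sources used here do not say where the probes lie, so endogenous and introduced TWIST1 RNA cannot be told apart.

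Among the 19903 genes, 665 passed the threshold (limma, adjusted p under 0.05), which is 3.34% of all. Of these, 315 (1.58%) were higher and 350 (1.76%) lower in shTWIST1+TWIST1 cells. The lower genes moved further: 178 fell by at least 1 on the log2 scale and 42 by at least 2, while 104 rose by at least 1 and 23 by at least 2. The median was -1.01 over the called lower genes and 0.77 over the called higher genes, against 0.01 over all genes. In a fit that blocked on replicate number, 1057 genes passed (5.31%), 499 higher (2.51%) and 558 lower (2.8%). The groups did not overlap for any of the 665 genes, a state found in 18.6% of all genes. Separation of the groups in a called gene, where given below, therefore adds nothing to its call. The count of higher genes was 118, 147, 206 and 202 when shTWIST1 replicate 1, shTWIST1 replicate 3, shTWIST1+TWIST1 replicate 3 or shControl replicate 3 was left out, and 497 without shTWIST1+TWIST1 replicate 2. The count of lower genes was 155 and 212 without shTWIST1 replicates 1 and 3, and 218 and 226 without shTWIST1+TWIST1 replicates 1 and 3. The plot of fold change against mean level shows the called genes spread over nearly the whole range of expression.

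**Figure D1:**
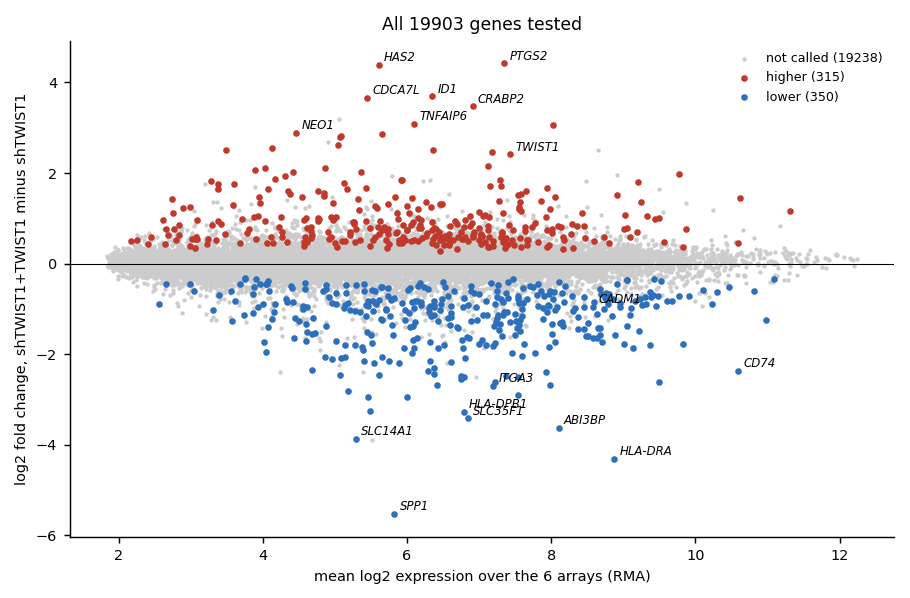
Log2 fold change of shTWIST1+TWIST1 minus shTWIST1 (vertical axis) against mean log2 expression over the 6 arrays (horizontal axis), 1 point per gene, with 315 called higher genes in red and 350 called lower genes in blue. The lower side reaches -5.53 at SPP1 and the higher side 4.42 at PTGS2.

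Array medians lay between 4.73 and 4.78. Correlations over all genes were 0.985 to 0.992 among shTWIST1+TWIST1 arrays, 0.986 to 0.993 among shTWIST1 arrays and 0.976 to 0.983 between the groups. In a principal component analysis of the 6 arrays, the first component (45.8% of the variance) separated the groups and the second (24.3%) set the replicate 2 arrays of both groups apart from the rest. The melanoma label was checked against lineage markers. SOX10, a neural crest and melanocyte lineage factor, was at 8.46, 8.62 and 8.07 in shTWIST1+TWIST1 arrays, against 8.77, 8.41 and 8.70 in shTWIST1 arrays, but the pigment genes PMEL, MLANA, TYR and TYRP1 lay between 2.23 and 2.95 in both groups, near the bottom of the scale. MITF, which drives the pigment genes, differed by -0.27 (limma adjusted p = 0.232). CSPG4, also in the check, was at 8.21, 8.57 and 8.23 in shTWIST1+TWIST1 arrays, against 7.34, 7.49 and 7.71 in shTWIST1 arrays. Its log2 fold change was 0.83 (limma adjusted p = 0.0614, and 0.0233 with the replicate block). S100B, given below, lay well above the array medians in both groups, and S100A1 did not pass in any leave-one-out fit.

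The genes that rose most encode an inflammatory enzyme, a matrix enzyme and inhibitors of helix-loop-helix factors. PTGS2, the inducible cyclooxygenase of prostaglandin synthesis, was at 9.20, 10.52 and 8.96 in shTWIST1+TWIST1 arrays, against 4.44, 6.45 and 4.51 in shTWIST1 arrays, a log2 fold change of 4.42 (SE 0.64, limma adjusted p = 0.00988). Replicate 2 was the highest array of each group, but the groups stayed apart. HAS2, a hyaluronan synthase, was at 8.04, 7.42 and 7.93 in shTWIST1+TWIST1 arrays, against 3.48, 3.15 and 3.60 in shTWIST1 arrays (log2 fold change 4.38, SE 0.28, limma adjusted p = 0.000312). ID1, an inhibitor of helix-loop-helix factors, was at 8.48, 7.62 and 8.47 in shTWIST1+TWIST1 arrays, against 4.03, 4.42 and 5.04 in shTWIST1 arrays, a difference of 3.69 (SE 0.29, limma adjusted p = 0.000672). In all 3 genes the lowest array with the cDNA was above the highest array without it.

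The next genes by size were CDCA7L, CRABP2 and TNFAIP6. CDCA7L, a nuclear protein related to the MYC target CDCA7, was at 7.59, 6.51 and 7.72 in shTWIST1+TWIST1 arrays, against 3.85, 3.57 and 3.44 in shTWIST1 arrays (log2 fold change 3.66, limma adjusted p = 0.000672). CRABP2, which carries retinoic acid to its nuclear receptor, was at 8.55, 8.42 and 8.96 in shTWIST1+TWIST1 arrays, against 4.67, 5.37 and 5.47 in shTWIST1 arrays (log2 fold change 3.48, limma adjusted p = 0.000634). TNFAIP6, a secreted protein that binds and crosslinks hyaluronan, was at 7.49, 7.75 and 7.68 in shTWIST1+TWIST1 arrays, against 4.32, 4.64 and 4.72 in shTWIST1 arrays (log2 fold change 3.08, limma adjusted p = 3.83e-05). No array of one group reached the other group in these genes either, as in every called gene. The rest of the 15 leading higher genes ran from IL1A at 3.06 to PTX3 at 2.50 and held NEO1, a receptor of netrins and repulsive guidance molecules, at 2.89, with 5.77, 5.92 and 6.03 in shTWIST1+TWIST1 arrays against 2.92, 3.01 and 3.12 in shTWIST1 arrays. They also held IL17RD, a feedback inhibitor of FGF signalling, at 2.79, the scavenger receptor COLEC12 at 2.63, the elastic fibre protein FBLN5 at 2.56, and the long non-coding RNA ZNF667-AS1 at 2.51. C3 (2.86), ID3 (2.83) and PTX3 were the least stable of the 15, with limma adjusted p of 0.158 and 0.084 without shTWIST1 replicate 1 for C3 and ID3 and of 0.09 without shTWIST1+TWIST1 replicate 3 for PTX3.

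The genes that fell most encode a secreted bone and matrix protein, antigen-presenting molecules and transporters. SPP1, which encodes osteopontin, was at 3.10, 3.17 and 2.90 in shTWIST1+TWIST1 arrays, against 8.98, 8.72 and 8.06 in shTWIST1 arrays, a log2 fold change of -5.53 (SE 0.22, limma adjusted p = 3.18e-05), or 46.1-fold lower. HLA-DRA, the alpha chain of the antigen-presenting molecule HLA-DR, was at 7.52, 6.43 and 6.21 in shTWIST1+TWIST1 arrays, against 11.23, 11.12 and 10.74 in shTWIST1 arrays (log2 fold change -4.31, SE 0.32, limma adjusted p = 0.00054). SLC14A1, a urea transporter, was at 2.73, 3.28 and 4.04 in shTWIST1+TWIST1 arrays, against 7.21, 6.94 and 7.51 in shTWIST1 arrays (log2 fold change -3.87, SE 0.37, limma adjusted p = 0.00146). SPP1 and SLC14A1 thus lay low on the scale with the cDNA, whereas HLA-DRA stayed well above the array medians.

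ABI3BP, an extracellular matrix protein, varied little within groups: it was at 6.25, 6.31 and 6.31 in shTWIST1+TWIST1 arrays, against 10.12, 9.87 and 9.76 in shTWIST1 arrays (log2 fold change -3.63, SE 0.19, limma adjusted p = 7.7e-05). SLC35F1, a solute carrier family member, was at 5.46, 5.21 and 4.74 in shTWIST1+TWIST1 arrays, against 8.87, 8.57 and 8.21 in shTWIST1 arrays (log2 fold change -3.42, limma adjusted p = 0.000672). HLA-DPB1, the beta chain of HLA-DP, was at 5.56, 5.16 and 4.73 in shTWIST1+TWIST1 arrays, against 8.81, 8.64 and 7.79 in shTWIST1 arrays (log2 fold change -3.27, limma adjusted p = 0.00301). Every array with the cDNA was below every array without it in these genes. The others of the 15 leading lower genes ran from SLITRK6 at -3.25 to HLA-DRB6 at -2.62. They held AZGP1 (-2.95) and SCRG1 (-2.94), the secreted semaphorins SEMA3D (-2.81) and SEMA3C (-2.69), which guide axons and neural crest cells, and the laminin-binding integrin subunit ITGA3 (-2.70). HLA-DRB6 is a pseudogene of the HLA-DRB family, so its value may include signal from its near-identical relatives.

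**Figure D2:**
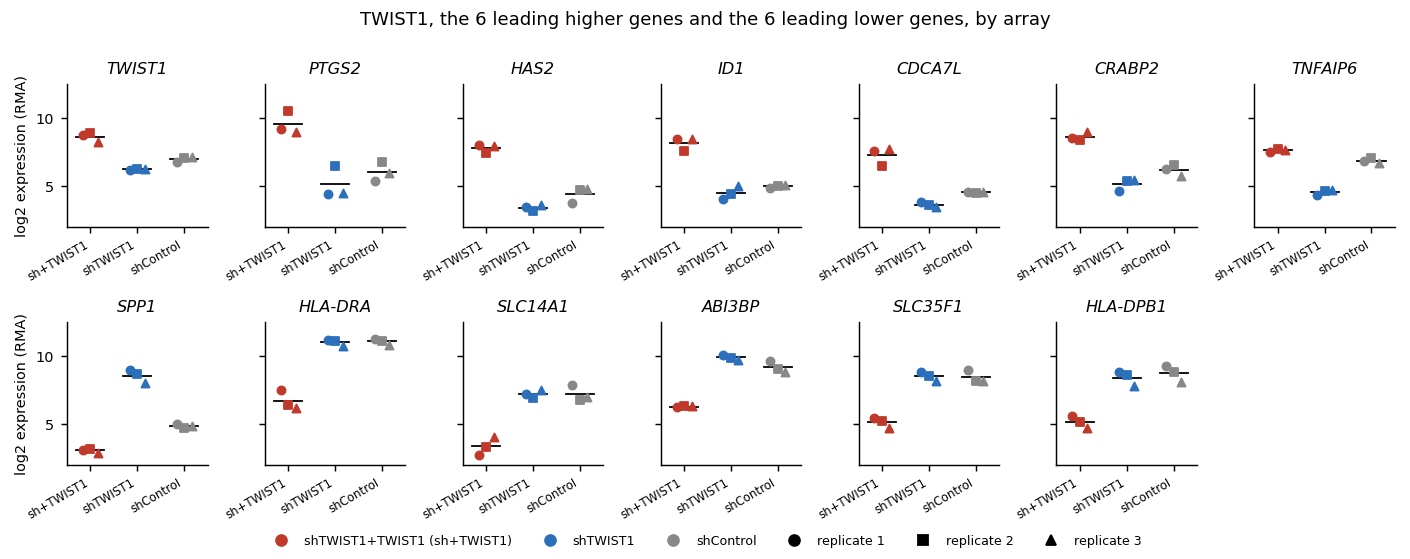
Log2 expression by array of TWIST1 and of the first 6 genes in each direction, with shTWIST1+TWIST1 (sh+TWIST1), shTWIST1 and shControl from left to right, a symbol per replicate and a line at the mean of 3 arrays. For each of the 13 genes, as for every called gene, the shTWIST1+TWIST1 arrays lie apart from the shTWIST1 arrays. PTGS2 has its highest value of each group in replicate 2.

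Promoter sequences of the first 3 genes per direction that the sequence table held are shown because TWIST1 binds E-boxes and these genes differed most between the groups. They come from RefSeq (GRCh38.p14), cover 250 bases before to 50 after the gene's start, and are written 5′ to 3′ along the gene, with each CANNTG in capitals. HAS2 and HLA-DRA are named only. The windows are chr1:186680374-186680673, minus strand for PTGS2, chr20:31605039-31605338, plus strand for ID1, and chr7:21945850-21946149, minus strand for CDCA7L among the higher genes. For the lower genes they are chr4:87975464-87975763, plus strand for SPP1, chr18:45723931-45724230, plus strand for SLC14A1, and chr3:100993372-100993671, minus strand for ABI3BP.
PTGS2: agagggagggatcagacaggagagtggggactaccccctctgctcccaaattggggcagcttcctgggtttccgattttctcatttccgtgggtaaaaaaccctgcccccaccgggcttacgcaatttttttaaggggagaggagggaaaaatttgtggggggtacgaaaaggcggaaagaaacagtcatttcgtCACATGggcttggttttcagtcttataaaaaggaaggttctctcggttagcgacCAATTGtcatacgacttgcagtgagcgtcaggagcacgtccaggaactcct
ID1: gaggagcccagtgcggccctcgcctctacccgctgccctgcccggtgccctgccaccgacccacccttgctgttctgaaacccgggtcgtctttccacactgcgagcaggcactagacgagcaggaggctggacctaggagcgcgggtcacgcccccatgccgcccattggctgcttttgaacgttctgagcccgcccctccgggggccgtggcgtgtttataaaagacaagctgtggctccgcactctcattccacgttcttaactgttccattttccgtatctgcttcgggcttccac
CDCA7L: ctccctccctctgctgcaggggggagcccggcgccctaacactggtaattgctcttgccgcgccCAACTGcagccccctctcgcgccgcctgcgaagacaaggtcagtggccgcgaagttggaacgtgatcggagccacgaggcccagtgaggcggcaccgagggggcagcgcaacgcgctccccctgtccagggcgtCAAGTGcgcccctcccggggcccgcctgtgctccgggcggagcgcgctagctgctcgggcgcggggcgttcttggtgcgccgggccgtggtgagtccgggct
SPP1: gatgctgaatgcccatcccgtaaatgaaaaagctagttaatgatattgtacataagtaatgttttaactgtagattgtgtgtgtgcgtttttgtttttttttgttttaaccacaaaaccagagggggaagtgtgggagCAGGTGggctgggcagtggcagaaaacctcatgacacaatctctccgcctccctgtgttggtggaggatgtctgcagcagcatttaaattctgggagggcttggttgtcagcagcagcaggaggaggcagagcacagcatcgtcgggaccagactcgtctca
SLC14A1: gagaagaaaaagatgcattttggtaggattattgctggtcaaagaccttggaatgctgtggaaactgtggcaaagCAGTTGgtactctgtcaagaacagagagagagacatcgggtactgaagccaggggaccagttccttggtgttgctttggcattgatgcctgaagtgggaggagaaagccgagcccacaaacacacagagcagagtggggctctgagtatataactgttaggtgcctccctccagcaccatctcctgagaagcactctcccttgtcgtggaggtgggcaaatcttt
ABI3BP: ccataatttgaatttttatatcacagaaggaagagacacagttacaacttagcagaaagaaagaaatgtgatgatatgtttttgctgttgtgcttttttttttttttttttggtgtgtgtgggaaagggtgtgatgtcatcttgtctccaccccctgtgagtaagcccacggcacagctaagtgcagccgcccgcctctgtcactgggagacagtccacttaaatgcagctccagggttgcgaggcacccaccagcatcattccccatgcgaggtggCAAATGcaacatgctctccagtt
PTGS2 has 2 matches, CACATG and CAATTG, whose first bases lie at -55 and -1 from the gene's start, and ID1 has 0. CDCA7L has CAACTG at -186 and CAAGTG at -52, SPP1 has CAGGTG at -112, SLC14A1 has CAGTTG at -175 and ABI3BP has CAAATG at 28. Over the promoters that could be matched, read on both strands, CANNTG stood in 56.6% of 249 promoters of called higher genes, 63.8% of 279 promoters of called lower genes and 64.2% of 14667 promoters of all genes tested. CATCTG or its reverse complement CAGATG, a form within CANNTG, stood in 8.43%, 12.9% and 11.6% of the same sets. These are counts of letters, and binding was not measured here.

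MHC class II presentation had called genes in the lower direction and 0 in the higher. These molecules show peptides to CD4+ T cells, some melanomas carry them, and CIITA is the coactivator that turns on their genes. Of 21 measured genes, 7 were lower and 14 did not pass, where 1.76% of all genes were lower, and the median was -0.30, against 0.01 over all genes. This list and those below were written with earlier results of these data known. A share above that over all genes is therefore no independent evidence. The called members are HLA-DRA and HLA-DPB1, described above, with HLA-DMA, CD74, HLA-DPA1, HLA-DMB and CIITA, the last 3 of which were singled out after their values were seen. CD74, the invariant chain, was at 9.69, 9.31 and 9.24 in shTWIST1+TWIST1 arrays, against 11.86, 11.79 and 11.66 in shTWIST1 arrays (log2 fold change -2.36, SE 0.13, limma adjusted p = 8.84e-05). CIITA was at 4.07, 4.11 and 4.10 in shTWIST1+TWIST1 arrays, against 5.54, 5.05 and 5.28 in shTWIST1 arrays (log2 fold change -1.20, limma adjusted p = 0.0112). The groups were apart in both, although CIITA lies near the array medians. HLA-DMA, which with HLA-DMB loads peptides, fell by 2.91, HLA-DPA1 by 1.78 and HLA-DMB by 1.63 on the log2 scale. Between 7 and 8 members were lower when each array was left out in turn, and 4 without the replicate 2 arrays of all groups, a setting chosen after seeing the data. The largest rise in the list was 1.23 and did not pass. Without shTWIST1+TWIST1 replicate 1, 1 member was higher. In RNA from whole cultures, fewer cells with a transcript and less of it per cell cannot be told apart.

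MHC class I presentation had 4 of 27 genes (14.8%) lower and 0 higher, with a median of -0.21. The counts of this list and of those below are to be read against the share over all genes. That share was 1.58% higher and 1.76% lower, and 2.51% higher and 2.8% lower with the replicate block. HLA-B, a class I heavy chain, was at 8.29, 8.75 and 8.50 in shTWIST1+TWIST1 arrays, against 9.41, 9.46 and 9.28 in shTWIST1 arrays (log2 fold change -0.87, limma adjusted p = 0.0247). The peptide editor TAPBPL fell by 0.95, the trimming enzyme ERAP2 by 0.93 and the immunoproteasome subunit PSMB9 by 0.86 on the log2 scale. TAPBPL was the member that stayed called in every leave-one-out fit, and 1 member of the list was lower when any 1 shTWIST1 array, or shTWIST1+TWIST1 replicate 1 or 3, was left out. HLA-B, ERAP2 and PSMB9 had limma adjusted p of 0.0972, 0.145 and 0.133 without shTWIST1 replicate 1. The interferon response list had 2 of 50 genes (4%) higher, HERC5 (1.82) and RIGI (0.58), and 1 (2%) lower, GBP1 (-1.76). RIGI and GBP1 kept their call in 1 of the 9 leave-one-out fits each.

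**Figure D3:**
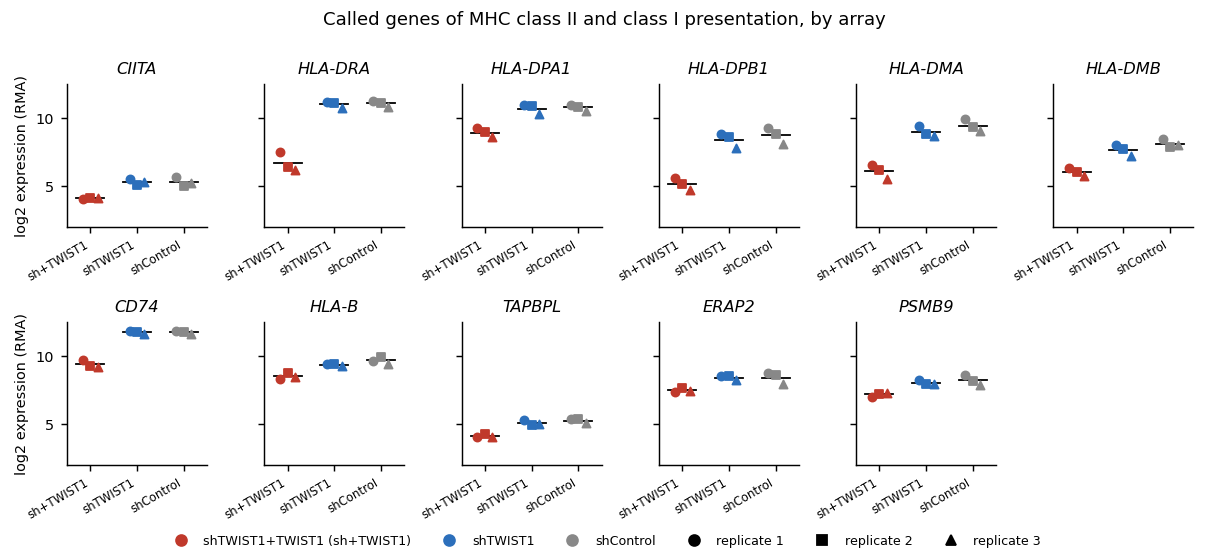
Log2 expression by array of the 7 called MHC class II genes and the 4 called MHC class I genes, with shTWIST1+TWIST1 (sh+TWIST1), shTWIST1 and shControl from left to right and a line at the mean of 3 arrays. HLA-DRA reaches at most 7.52 with the cDNA and at least 10.74 without it, and the shControl arrays lie near the shTWIST1 arrays in most panels.

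Of 60 cytokines, chemokines and NF-kappaB targets, 5 were higher, 2 were lower and 53 did not pass, with a median of 0.28, and with the replicate block 12 were higher and 2 lower. IL1A, an alarm cytokine, was at 8.63, 10.38 and 9.65 in shTWIST1+TWIST1 arrays, against 6.13, 6.72 and 6.63 in shTWIST1 arrays (log2 fold change 3.06, SE 0.39, limma adjusted p = 0.00543). TNFRSF11B, the decoy receptor osteoprotegerin, was at 8.75, 8.97 and 8.65 in shTWIST1+TWIST1 arrays, against 7.58, 7.19 and 7.19 in shTWIST1 arrays (log2 fold change 1.47, limma adjusted p = 0.00274). Neither overlapped between the groups. TNF rose by 1.60 and the neutrophil chemokine CXCL1 by 1.15 on the log2 scale, with limma adjusted p of 0.116 and 0.0995 without shTWIST1 replicate 1. The lower members were the death receptor TNFRSF21 (-1.14) and the cytokine IL15 (-0.82). Without shTWIST1 replicate 1 or shControl replicate 2, 2 members of the list were higher.

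Prostaglandin synthesis and hyaluronan metabolism each had a few large changes and a median near 0. In the prostaglandin list, PTGS2 and PTGIS, the prostacyclin synthase, were the 2 of 27 genes that rose (median 0.02), and PTGIS, at 1.53, had a limma adjusted p of 0.134 without shTWIST1 replicate 1. In the hyaluronan list 3 of 26 genes were higher, the synthase HAS2 and the matrix-linking proteins TNFAIP6 and PTX3, and 1 lower, the proteoglycan ACAN (median -0.03). ACAN was at 4.55, 5.95 and 4.96 in shTWIST1+TWIST1 arrays, against 7.33, 8.04 and 7.37 in shTWIST1 arrays (log2 fold change -2.43, limma adjusted p = 0.00836). ACAN encodes aggrecan, whose core protein binds hyaluronan, and it moved against the other called members.

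Among helix-loop-helix factors and their inhibitors, 3 of 29 genes were higher and 1 lower (median 0.02). The higher members were TWIST1 itself, ID1 and ID3, and the lower one was MYC (-0.77, limma adjusted p = 0.00757). The targets and parts of BMP and TGF-beta signalling, which induces ID genes, moved both ways, with 4 of 44 higher and 4 lower (median -0.03). NEO1, TGFBI (0.99), the ligand BMP7 (0.95) and SMAD5 (0.63) were higher, while the pseudoreceptor BAMBI (-1.57), the BMP and activin antagonist FST (-1.97), PMEPA1 (-1.98) and the ligand TGFB2 (-1.87) were lower. BAMBI was at 7.93, 8.01 and 7.72 in shTWIST1+TWIST1 arrays, against 9.34, 9.72 and 9.32 in shTWIST1 arrays (limma adjusted p = 0.000823). Without shTWIST1 replicate 1, 1 member of the list was higher and 1 lower, and SMAD5 also lost its call with the replicate block (limma adjusted p = 0.051).

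Genes of EMT itself moved in part. Of 25 EMT factors and markers, 2 were higher, 1 was lower and the median was -0.02. PRRX1, a mesenchymal homeobox factor, was at 9.44, 9.9996 and 9.57 in shTWIST1+TWIST1 arrays, against 8.17, 8.32 and 8.01 in shTWIST1 arrays (log2 fold change 1.51, limma adjusted p = 0.0112, and 0.0519 without shTWIST1 replicate 1). SNAI1, a repressor of epithelial genes, was at 9.81, 9.46 and 9.41 in shTWIST1+TWIST1 arrays, against 8.25, 8.65 and 8.53 in shTWIST1 arrays (log2 fold change 1.08, limma adjusted p = 0.00612). CDH2, the mesenchymal N-cadherin, was at 8.45, 8.57 and 8.38 in shTWIST1+TWIST1 arrays, against 9.31, 9.20 and 9.24 in shTWIST1 arrays, so this marker was lower with the cDNA (log2 fold change -0.78, limma adjusted p = 0.00202). SNAI2 averaged 10.11 in shTWIST1+TWIST1 and 8.98 in shTWIST1 cells, a difference of 1.14 that passed only with the replicate block (limma adjusted p = 0.0827 without the block and 0.0161 with it). ZEB1 (-0.20), ZEB2 (-0.25), VIM (-0.05) and CDH1 (0.02) did not pass, and CDH1, the epithelial cadherin, lay between 2.43 and 2.58 in all 6 arrays. SNAI2, ZEB1, ZEB2, VIM and CDH1 were singled out after their values were seen.

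The neural crest and dedifferentiated melanoma list had 11 of 44 genes (25%) lower, 1 higher and 32 that did not pass. Its median of -0.47 was the widest shift of median among the lists. ERBB3, a neuregulin receptor of the glial and melanocyte lineage, was at 6.80, 6.98 and 6.44 in shTWIST1+TWIST1 arrays, against 9.11, 9.39 and 8.88 in shTWIST1 arrays (log2 fold change -2.39, SE 0.17, limma adjusted p = 0.00047). SLITRK6, a neuronal transmembrane protein, was at 3.55, 3.44 and 4.61 in shTWIST1+TWIST1 arrays, against 6.71, 7.06 and 7.58 in shTWIST1 arrays (limma adjusted p = 0.00318). The groups did not overlap in either gene, and SLITRK6 lay below the array medians with the cDNA in all 3 arrays. SCRG1 and ITGA3 of the same list are given above, and TGFBI was the member that rose. ERBB3, SLITRK6, ITGA3, ADAM12, CCN2, THBS1, LOXL2 and CDH2, all lower, are counted in other lists as well. AXL (-0.11), NGFR (-0.50), PAX3 (-0.07) and TFAP2A (0.15), singled out after their values were seen, did not pass. Without shTWIST1 replicate 1, 6 members were lower, and with the replicate block 16. In the melanocyte list 5 of 52 genes were lower and 1 higher (median -0.03). S100B, a calcium-binding protein used as a melanoma marker, was at 8.31, 7.80 and 8.25 in shTWIST1+TWIST1 arrays, against 10.03, 9.77 and 9.86 in shTWIST1 arrays (log2 fold change -1.77, limma adjusted p = 0.00198). Without shTWIST1 replicate 1 or shTWIST1+TWIST1 replicate 1, 2 members of this list were lower.

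**Figure D4:**
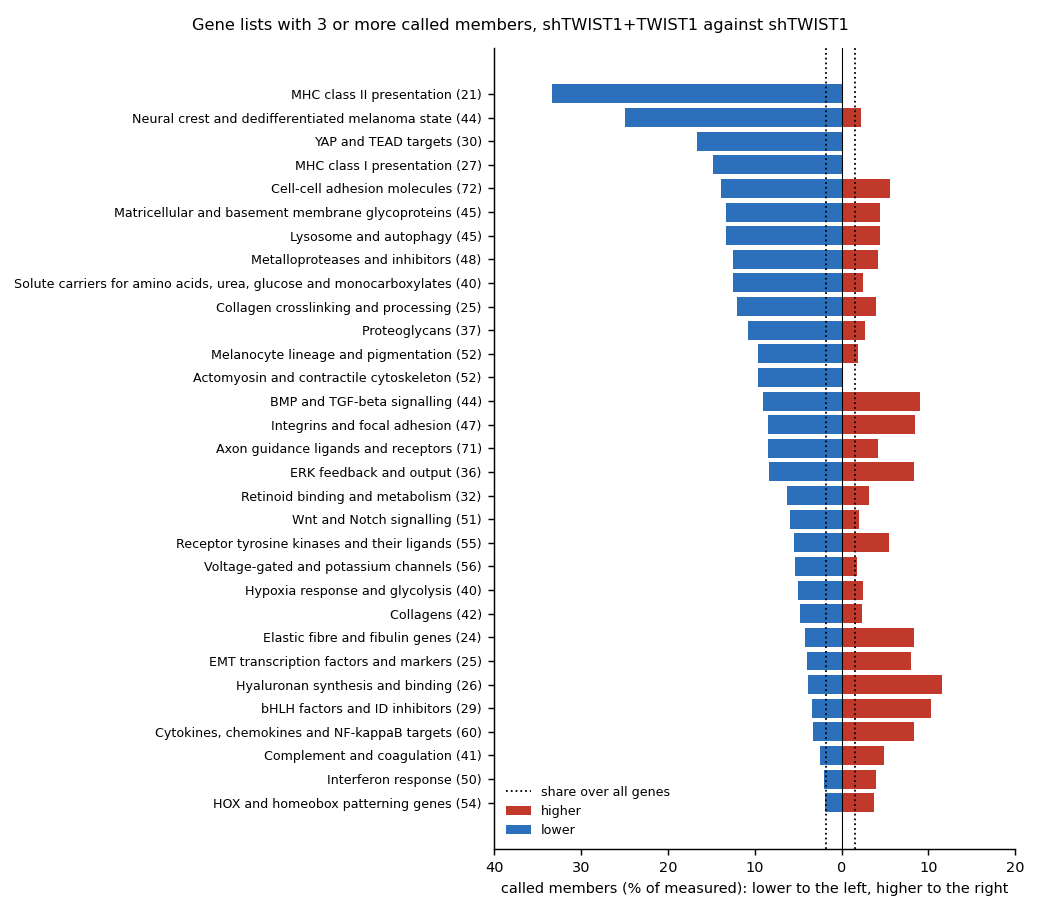
Share of measured members called lower (left, blue) and higher (right, red) in shTWIST1+TWIST1 cells for each gene list with 3 or more called members, with the number measured in brackets and dotted lines at the share over all genes (1.76% lower, 1.58% higher). MHC class II presentation, with 7 of 21 lower, and the neural crest and dedifferentiated melanoma list, with 11 of 44, reach furthest to the left. The lists were written with earlier results of these data known.

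Cell-cell adhesion molecules were mostly lower among the called, with 10 of 72 lower and 4 higher (median -0.04). CADM1, an immunoglobulin-type adhesion molecule that the study followed up from these arrays, so that its call here is no independent evidence, was at 8.19, 7.75 and 8.36 in shTWIST1+TWIST1 arrays, against 9.26, 8.90 and 9.01 in shTWIST1 arrays (log2 fold change -0.96, SE 0.17, limma adjusted p = 0.0247). The arrays of the groups did not overlap, but CADM1 kept its call in 5 of the 9 leave-one-out fits, with a limma adjusted p of 0.0989 without shTWIST1 replicate 1. MCAM (-1.43), ALCAM (-1.23), CADM3 (-1.17) and NCAM1 (-1.13), other adhesion molecules of the immunoglobulin type, were lower as well, and of these MCAM kept its call in all 9 fits. DSG2, a desmosomal cadherin, was at 6.56, 6.90 and 7.09 in shTWIST1+TWIST1 arrays, against 4.88, 4.80 and 5.30 in shTWIST1 arrays (log2 fold change 1.86, limma adjusted p = 0.00146). Without shTWIST1 replicate 1, 3 members of this list were lower and 1 higher.

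Integrins split by subunit, with 4 of 47 genes of the integrin and focal adhesion list higher and 4 lower (median -0.16). The collagen receptor subunit ITGA11 was at 8.16, 8.69 and 8.37 in shTWIST1+TWIST1 arrays, against 5.63, 6.52 and 5.66 in shTWIST1 arrays (log2 fold change 2.47, limma adjusted p = 0.00719), and ITGA8 rose by 1.66 on the log2 scale. ITGA3 was at 5.75, 5.84 and 5.93 in shTWIST1+TWIST1 arrays, against 8.48, 8.35 and 8.78 in shTWIST1 arrays (log2 fold change -2.70, SE 0.13, limma adjusted p = 5.77e-05). ITGA6, which like ITGA3 binds laminin, fell by 0.89 and ITGB8 by 1.74 on the log2 scale. All 5 kept their call in each leave-one-out fit. The tensins TNS1 (0.66) and TNS2 (0.84), which tie integrins to actin, were higher.

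Receptor tyrosine kinases also moved both ways, with 3 of 55 genes higher and 3 lower (median -0.07). PDGFRB was at 6.69, 6.36 and 6.07 in shTWIST1+TWIST1 arrays, against 4.53, 4.28 and 4.27 in shTWIST1 arrays (log2 fold change 2.01, limma adjusted p = 0.001). PDGFRA, the other PDGF receptor, was at 8.34, 7.95 and 8.20 in shTWIST1+TWIST1 arrays, against 6.44, 6.54 and 6.35 in shTWIST1 arrays (log2 fold change 1.72, limma adjusted p = 0.00146). The VEGF receptor FLT1 rose by 1.53 but kept its call in 3 of the 9 leave-one-out fits (limma adjusted p = 0.103 without shTWIST1 replicate 1), and ERBB3, GFRA1 (-1.70) and NTRK3 (-1.53), receptors of the neural lineage, were lower. Without shTWIST1 replicate 2, 5 members of the list were lower. PDGFRA and COL3A1 are also the 2 of 12 fibroblast markers that were higher, COL3A1 in 2 of the 9 leave-one-out fits, and the mean level of that list was 5.32 to 5.84 in shTWIST1+TWIST1 arrays, 4.97 to 5.07 in shTWIST1 arrays and 5.12 to 5.29 in shControl arrays. Its part in these results was not tested. Keratinocyte and endothelial markers had 0 of 12 called each, and of 14 leukocyte markers CD68, a lysosomal protein, was lower (-0.79, limma adjusted p = 0.0358, and 0.053 with the replicate block). The mean levels of those 3 lists lay between 2.996 and 3.77 in both groups, below the array medians, and CD3D and CD14, which define T cells and monocytes, lay between 2.23 and 3.14.

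Metalloproteases and their inhibitors had 6 of 48 genes lower and 2 higher (median -0.08). ADAM19 was at 5.10, 5.21 and 5.002 in shTWIST1+TWIST1 arrays, against 7.68, 7.32 and 7.43 in shTWIST1 arrays (log2 fold change -2.37, limma adjusted p = 6.77e-05), with ADAM12 (-1.83), MMP15 (-2.07) and the inhibitor TIMP3 (-0.89) lower too. MMP1, the interstitial collagenase, was at 11.29, 11.42 and 11.32 in shTWIST1+TWIST1 arrays, against 10.08, 9.62 and 9.97 in shTWIST1 arrays (log2 fold change 1.45, limma adjusted p = 0.00122). Matricellular and basement membrane glycoproteins had 6 of 45 lower and 2 higher (median -0.04), and 2 were lower without shTWIST1 replicate 1. Besides SPP1 and ABI3BP these were led by CCN2 (-1.42) and THBS1 (-1.24), with limma adjusted p of 0.156 without shTWIST1 replicate 1 for CCN2 and of 0.15 without shTWIST1+TWIST1 replicate 1 for THBS1. In the proteoglycan list the heparan sulfate carriers SDC2 and SDC3 fell by 1.60 each and BGN rose by 1.80 on the log2 scale. BGN had a limma adjusted p of 0.145 without shTWIST1 replicate 1.

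YAP and TEAD targets, read-outs of a pathway that responds to cell tension, had 5 of 30 genes lower and 0 higher (median -0.29), and actomyosin genes 5 of 52 lower and 0 higher (median -0.19). DOCK5, a guanine nucleotide exchange factor, was at 7.63, 7.45 and 7.53 in shTWIST1+TWIST1 arrays, against 8.59, 8.62 and 8.47 in shTWIST1 arrays (log2 fold change -1.03, limma adjusted p = 0.00054). CALD1, the actin-binding protein caldesmon, was at 8.40, 8.16 and 8.86 in shTWIST1+TWIST1 arrays, against 9.88, 9.99 and 9.999 in shTWIST1 arrays (log2 fold change -1.48, limma adjusted p = 0.00359). The cytoskeletal linker DST fell by 1.46 on the log2 scale. No array of one group reached the other group for these genes. With the replicate block, 8 and 10 members of the lists were lower, and without shTWIST1 replicate 1 or 3, 3 and 2. Leaving out shControl replicate 3 or shTWIST1+TWIST1 replicate 1 or 2 also left 2 lower actomyosin genes.

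Lysosome and autophagy genes had 6 of 45 lower and 2 higher (median -0.13). The protease CTSD was at 7.82, 7.75 and 7.38 in shTWIST1+TWIST1 arrays, against 9.23, 9.07 and 8.96 in shTWIST1 arrays (log2 fold change -1.44, limma adjusted p = 0.00146). CTSK, a collagen-degrading cathepsin, went the other way, at 8.81, 8.68 and 8.86 in shTWIST1+TWIST1 arrays, against 7.29, 7.24 and 6.80 in shTWIST1 arrays (log2 fold change 1.68, limma adjusted p = 0.00448). The proton pump subunit ATP6V1B2 (-0.96) was lower. Without shTWIST1 replicate 1 or shTWIST1+TWIST1 replicate 1, 2 members were lower. Axon guidance genes had 6 of 71 lower, led by SLITRK6, SEMA3D, SEMA3C and SEMA5A (-1.29), and 3 higher, ROBO2 (1.34), PLXNA1 (0.79) and LRRN1 (0.59), with a median of -0.04. Leaving out shTWIST1 replicate 1 or 2 left 1 member higher, and ROBO2 and PLXNA1 kept their calls in 6 and 3 of the 9 leave-one-out fits.

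Of 60 cell cycle and replication genes, CDCA7L alone was called and the median was 0.07, but 16 were higher without shTWIST1+TWIST1 replicate 2 and 7 without the replicate 2 arrays of all groups. In the fit of all arrays, 0 of 42 ATF4 and unfolded protein response genes, 0 of 33 cholesterol and fatty acid synthesis genes and 0 of 63 oxidative phosphorylation genes passed (limma, adjusted p under 0.05), with medians of 0.02, 0.12 and 0.17. Without shTWIST1+TWIST1 replicate 2, 3 genes of the first list were lower, and 1 of the second and 2 of the third were higher. In these lists the pairs of arrays with the same replicate number differed. The cell cycle median was 0.26 in pair 1, -0.38 in pair 2 and 0.34 in pair 3, and that of ATF4 and unfolded protein response genes was -0.04, 0.32 and -0.18. The MHC class II median was -0.56, -0.27 and -0.14. That of the neural crest and dedifferentiated melanoma list was -0.69, -0.33 and -0.66. Both medians kept 1 sign in all pairs, as the plot of pair medians shows.

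**Figure D5:**
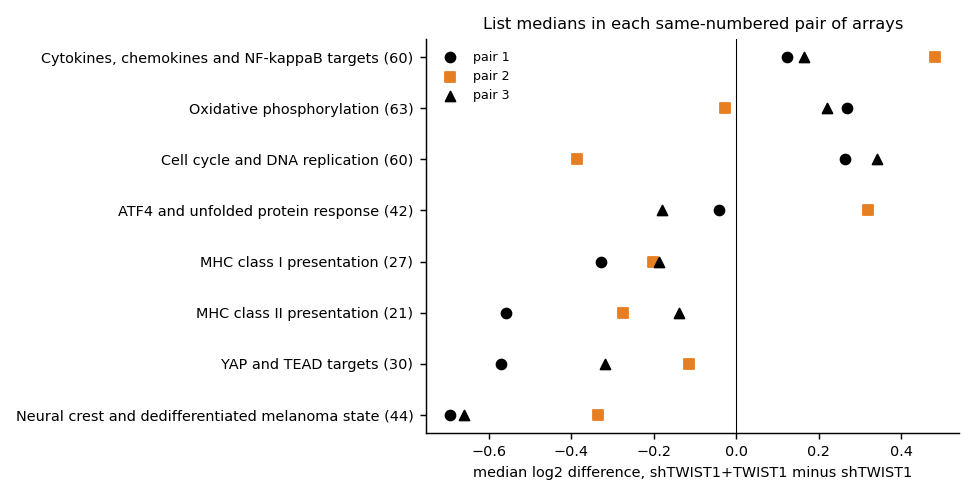
Median log2 difference of shTWIST1+TWIST1 minus shTWIST1 (horizontal axis) over the measured members of 8 gene lists, for each same-numbered pair of arrays, with pair 2 in orange. The cell cycle median stands at -0.38 in pair 2 and at 0.26 and 0.34 in the others. The median of the neural crest and dedifferentiated melanoma list is negative in all 3 pairs.

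The shControl arrays place these genes in the series. Values against shControl share arrays with the comparison above and are given side by side, with no test of the difference between contrasts. For SPP1 shTWIST1+TWIST1 stood at -1.80 and shTWIST1 at 3.73 relative to shControl, on opposite sides, with shControl at 5.04, 4.68 and 4.85. For TNFAIP6 shTWIST1+TWIST1 stood at 0.78 and shTWIST1 at -2.30 relative to shControl, also on opposite sides. SPP1 and TNFAIP6 are 2 of the 3 genes called between shTWIST1 and shControl (0.0151% of all genes), with STX10, a syntaxin, at -0.75 as the third; between shTWIST1+TWIST1 and shTWIST1, STX10 differed by 0.19 (limma adjusted p = 0.175). IL1A was at 0.65 in shTWIST1+TWIST1 (limma adjusted p = 0.509) and at -2.41 in shTWIST1 (limma adjusted p = 0.197) relative to shControl, and neither passed.

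Several leading higher genes also had shTWIST1 values below shControl, though none of these passed. HAS2 stood at 3.38 in shTWIST1+TWIST1 and at -1.01 in shTWIST1 relative to shControl (limma adjusted p = 0.527 for shTWIST1). CRABP2 stood at 2.48 and -0.997, CDCA7L at 2.73 and -0.93, and C3 at 0.73 and -2.12. Some other genes had shTWIST1 values close to shControl. HLA-DRA stood at -4.38 in shTWIST1+TWIST1 and at -0.07 in shTWIST1 relative to shControl, and CD74 at -2.37 and -0.01. NEO1 stood at 2.997 in shTWIST1+TWIST1 and at 0.11 in shTWIST1, ITGA3 at -2.51 and 0.18, and SLC14A1 at -3.84 and 0.02. CADM1 stood at -0.88 in shTWIST1+TWIST1 (limma adjusted p = 0.0399) and at 0.08 in shTWIST1 (limma adjusted p = 0.966). Across all genes, 509 were called between shTWIST1+TWIST1 and shControl (2.56%). A p that missed the threshold between shTWIST1 and shControl does not show that these groups were alike.

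Over the 151 called genes that the naming rule chose beside TWIST1, 76 kept their call in each of the 9 fits that left out 1 array, and 146 kept it with the replicate block. With only the 6 arrays compared, 98 kept their call and 53 lost it, CADM1 and ID3 among them.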

How the data were processed

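RNA from 9 samples of WM793TR cells was measured on single-colour arrays. The authors deposited log2 expression values made with RMA (version not given in the sources used here), which corrects background, quantile-normalizes and summarizes probes by median polish; the chip definition is not given in the sources used here. No read depth applies, and the number of arrays limits the precision. Of 20673 probe sets, 19935 were paired with 1 symbol and 738 with none; where 2 shared a gene, that with the higher mean was kept. Genes of the Y chromosome (31) were left out, which left 19903.

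The 3 groups of 3 arrays were fitted together in limma 3.58.1 (R 4.3.3) with the default prior, and the contrast shTWIST1+TWIST1 minus shTWIST1 was taken, with Benjamini-Hochberg adjustment over all genes and a threshold of 0.05. The fit was tested on simulated data. Deviations from group means correlated at 0.14, 0.30 and 0.30 between same-numbered arrays, and the numbers were taken as pairs. Correlations between differently numbered arrays are not given, so these values alone cannot show a pairing by number. A fit with the replicate block is given beside the counts. The comparison, the 44 gene lists and the naming rule were chosen with earlier results of these data known. The rule took TWIST1 and up to 15 called genes per direction by absolute log2 fold change, among those whose groups did not overlap. It also took up to 4 called genes per direction and list, and up to 2 others where a list had fewer than 2. Genes called between shTWIST1 and shControl were added, and CADM1, which the study's text names. The figure's EMT genes, which the rule also allowed, were not used here. A list is described by its counts and median; the fuller set of alternatives is given in the closing section. Tables and plots were made in Python 3.11.15 with pandas 2.3.3, numpy 2.4.6 and matplotlib 3.10.9.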

Additional observations from a re-analysis of the deposited data

How the results depend on the processing

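The counts of genes higher in shTWIST1+TWIST1 than shTWIST1 and lower in shTWIST1+TWIST1 than shTWIST1 were 315 and 350. With the replicate block they were 499 and 558, of which 295 and 333 were among the first, with only the 6 arrays compared 131 and 200, and with both choices together 126 and 228; the 6-array fits have fewer residual degrees of freedom. The methods' t-test with unequal variance gave 0 and 0 after Benjamini-Hochberg adjustment and 832 and 826 at its unadjusted threshold, where limma had 3428 genes at an unadjusted p under 0.05, and TWIST1 kept its log2 fold change of 2.41 with an adjusted p of 0.405. A minimum absolute log2 fold change of 1 left 104 and 178, and an adjusted p under 0.01 left 86 and 123. Leaving out each array in turn gave 118 to 497 higher and 155 to 371 lower genes, and a log2 fold change of 2.28 to 2.60 for TWIST1. Without the replicate 2 arrays of all groups, chosen after seeing the data, 280 were higher and 280 lower. Quantile normalization, median centring, leaving out dim genes, array weights, a prior with trend and robust fit, averaging probe sets, testing every probe set and keeping the Y chromosome stayed within 1.5 times of both counts. None of the 151 called genes that the naming rule chose beside TWIST1 reversed its direction in any setting run. The groups did not overlap in any called gene, so leaving out arrays could not reverse a direction, and this is no added support. The calls lost among the 151 ranged from 0 with the Y chromosome kept to 74 without shTWIST1 replicate 1. All 151 were lost with the methods' t-test. The cause of these losses was not tested.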

Other observations

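Several called genes lie in lists with little other movement. GPX4, the peroxidase that reduces lipid peroxides, was at 9.79, 9.72 and 10.25 in shTWIST1+TWIST1 arrays, against 8.25, 8.43 and 9.02 in shTWIST1 arrays (log2 fold change 1.35, limma adjusted p = 0.0136, and kept in 8 of the 9 leave-one-out fits), while the list of NRF2, glutathione and metallothionein genes had a median of -0.01. KCNMA1, the large-conductance calcium-activated potassium channel, was at 5.76, 5.93 and 6.08 in shTWIST1+TWIST1 arrays, against 7.69, 7.54 and 7.59 in shTWIST1 arrays (log2 fold change -1.69, limma adjusted p = 0.000312), and KCNK1, a leak potassium channel, went the other way at 1.46 (limma adjusted p = 0.00229). In the retinoid list, whose median was -0.05, the carrier CRABP2 rose by 3.48 while the receptor RARA (-0.91, kept in 5 of the 9 leave-one-out fits) and the retinal-oxidizing enzyme ALDH1A3 (-0.71) were lower.

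In the list of ERK feedback and output, IL17RD (2.79), IER2 (1.06) and DUSP6 (0.50) were higher and DUSP4 (-1.13), MYC (-0.77) and CCND1 (-0.61) lower, of 36 measured. Of these, IL17RD and MYC kept their call in all 9 leave-one-out fits. Among the 737 probe sets with no symbol that were tested, 17 were higher and 16 lower, where 1.58% of all genes were higher and 1.76% lower. The number of arrays per group (3) limits what can be seen at small differences, and genes at the bottom of the scale may differ by more than their signal shows: 33.0% of the called higher genes lay under the median level in shTWIST1 and 24.9% of the called lower genes did so in shTWIST1+TWIST1, against 49.9% of all genes in each group.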
